A study of Tetranychus urticae with 12 samples.

Results

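A graded set of 98 genes, out of 19114 in the deposited count table, was followed across 3 strains of the spider mite Tetranychus urticae. In all 98 genes London had the highest level, Trizina an intermediate one and BC2018-14 the lowest. The labels call Trizina multi-resistant, and the series title speaks of a field population from Greece. They call the other strains, London and BC2018-14, susceptible. All mites were untreated and were reared on potted kidney bean without contact with insecticides, and RNA was taken from whole bodies. The raw table held 4 Trizina, 3 London and 4 BC2018-14 libraries. A further London library, number 5, was found only in a shorter table of the Trizina and London comparison. The labels do not give the age or sex of the mites and do not state that replicate libraries were grown apart, so the spread between libraries may be technical.

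The genes were chosen by their measured levels, as CPM, the usual scaling of read counts to a fixed library total. The London mean had to be at least 2 times the Trizina mean, and the Trizina mean at least 2 times the BC2018-14 mean, which itself had to reach 0.2 CPM. The lowest library of a higher strain also had to lie above the highest library of the next strain. The 100 most abundant genes and 2 blocks of neighbouring IDs on scaffolds 6 and 11 were left out. Of 13964 genes with at least 0.2 CPM in BC2018-14, 1009 met the first ratio as well and 124 met both. The conditions on overlap left 101, of which 3 were among the most abundant genes and 0 were in the blocks. Because these values chose the genes, the differences between strains are given below as a description, without tests.

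Spider mites pierce leaf cells and suck out their contents, and the species feeds on a very wide range of host plants. It is also known for evolving resistance to acaricides quickly, and its London strain was the source of the reference genome. Mite strains differ in the expression of many genes even without treatment. A level measured in a whole body depends on which tissues and stages are present as well as on transcription. With RNA from whole mites, fewer cells of a type and less RNA per cell cannot be told apart. Names are absent from the deposited tables, and a table of 14930 RefSeq genes matched 0 of the 19114 IDs, so genes are given by ID without a function.

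Of the 6 possible orders of the strains, this one held the most genes under the rule. The next largest order also had London highest, with BC2018-14 in the middle and Trizina lowest, and held 39 genes under the same conditions. The reverse order, with BC2018-14 highest and London lowest, held 34, and all orders with another strain highest held between 12 and 34. London was the source of the reference genome. Whether reads of Trizina and BC2018-14 were assigned to genes as fully as those of London was not tested. Across the 14394 genes that passed a filter on low counts, 1876 (13.03%) had strain means in the order London, Trizina, BC2018-14, before any minimum ratio. All 98 graded genes passed that filter. Several libraries stood apart from others of their strain over these genes, chiefly BC2018-14 b and e and London 2, and results without them are given below.

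The levels of the graded genes spanned a wide range. Their mean CPM in Trizina had a median of 4.99 and a range of 0.514 to 204. In London the median was 30.7 and the range 1.07 to 2386, and in BC2018-14 the median was 1.07 and the range 0.207 to 54.8. The medians over all tested genes were 19.1 CPM in Trizina, 17.7 in London and 18.5 in BC2018-14. In London 25 of the graded genes reached 100 CPM, and in Trizina 3 did so. In BC2018-14, 47 had a mean under 1 CPM, and 35 had a library with fewer than 10 reads, so that their lowest levels rest on few reads.

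**Figure D1:**
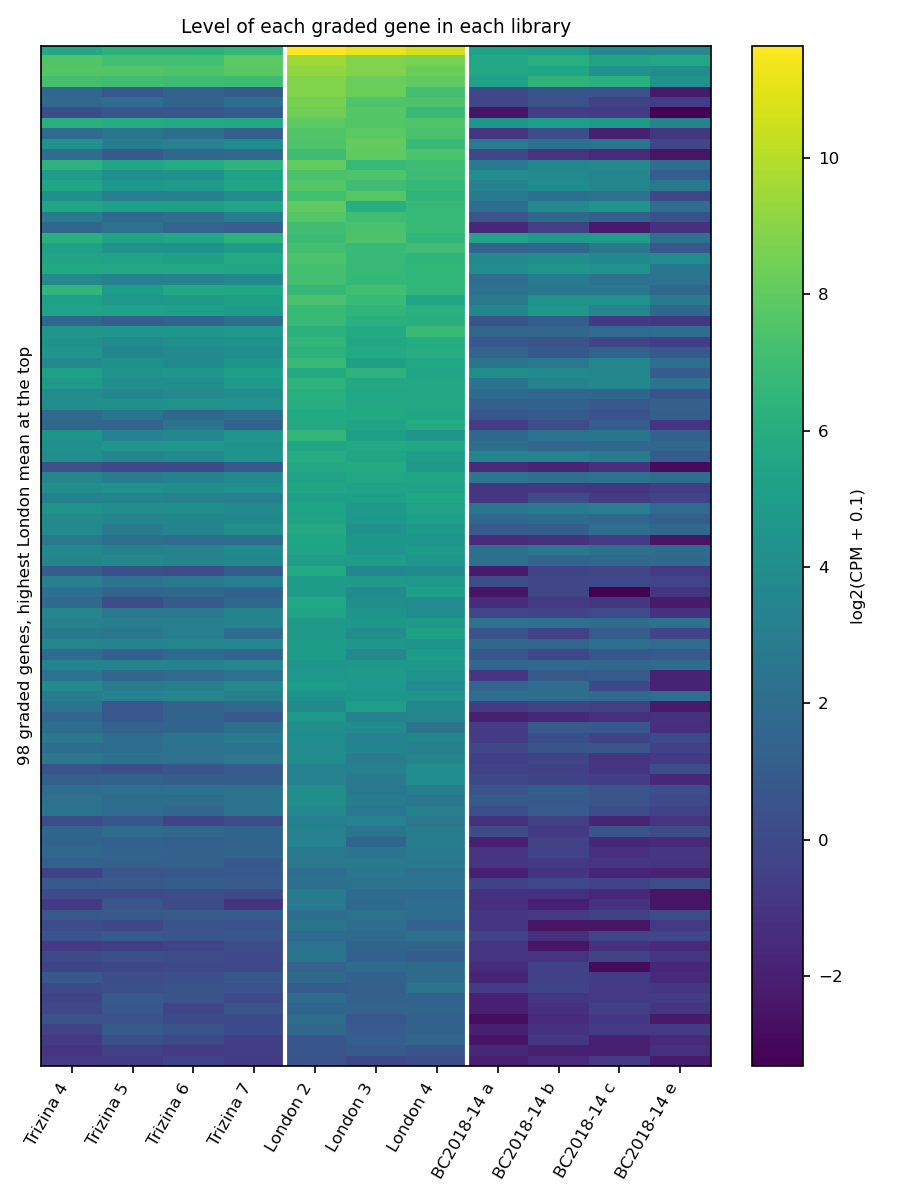
Level of each of the 98 graded genes (rows, highest London mean at the top) in each of the 11 libraries (columns), as log2(CPM + 0.1) in colour, with white lines between the strains. The 3 London columns are brightest and the BC2018-14 columns darkest in every row by the choice of the genes, and within BC2018-14 many rows are darkest in library e.

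The graded genes made up a small part of the RNA. They held 0.168 ± 0.0228% of all counts in Trizina (SD, n = 4), 0.899 ± 0.243% in London (SD, n = 3) and 0.0467 ± 0.0141% in BC2018-14 (SD, n = 4). The share in Trizina was 5.34-fold below that in London and 3.60-fold above that in BC2018-14. Single Trizina libraries lay between 0.147% and 0.190%, London libraries between 0.672% and 1.16%, and BC2018-14 libraries between 0.0270% and 0.0605%, so the strains did not overlap, as each gene was chosen not to. One gene, tetur03g08460, made up 4.44% of the graded counts in Trizina, 26.5% in London and 5.30% in BC2018-14. Without it the share was 0.161 ± 0.0229% in Trizina (SD, n = 4), 0.661 ± 0.162% in London (SD, n = 3) and 0.0442 ± 0.0134% in BC2018-14 (SD, n = 4).

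The distance from Trizina to London and that from Trizina to BC2018-14 were of similar size on the median but differed widely between genes. The median log2 ratio of means was -1.69 for Trizina over London, or 3.22-fold lower, and ran from -7.18 to -1.004. For Trizina over BC2018-14 it was 1.79, or 3.46-fold higher, and ran from 1.04 to 5.39. Over all tested genes the medians were 0.17 and -0.07. For BC2018-14 over London the median of the graded genes was -3.81, or 14.1-fold lower, with a range from -9.56 to -2.12. Scaling by TMM factors, which adjust for differences in the makeup of the libraries, moved the all-gene median of the same ratio for Trizina over London to 0.0024, against 0.17 with library totals. The TMM factors were 1.00 to 1.02 in Trizina, 0.874 to 0.918 in London and 1.06 to 1.09 in BC2018-14. With TMM scaling the median log2 ratio of the graded genes was -1.87 for Trizina over London and 1.86 for Trizina over BC2018-14.

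Of the 98 genes, 43 had their larger step between Trizina and London and 55 between Trizina and BC2018-14. The part of the log2 range from BC2018-14 to London that lay between Trizina and London had a median of 47.7% over the genes, with quartiles of 41.3% and 59.2%. It ran from 17.9% in tetur06g03060 to 84.5% in tetur13g01210. The gene tetur13g01210, named after its values were seen, had 3.05, 1.56, 2.52 and 1.78 CPM in Trizina, 442, 318 and 145 CPM in London, and 0.882, 1.36, 1.28 and 0.112 CPM in BC2018-14, with log2 ratios of -7.08 for Trizina over London and 1.29 for Trizina over BC2018-14. In 39 genes the steps differed by no more than 0.5 on the log2 scale. Steps of more than 4 on the log2 scale occurred between Trizina and London in 11 genes and between Trizina and BC2018-14 in 2 genes. Both steps exceeded 2 in 17 genes, and both were under 1.5 in 12. Across the 98 genes the sizes of the steps had a Spearman rho of 0.07, where both share the Trizina libraries and both are at least 1 by choice.

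**Figure D2:**
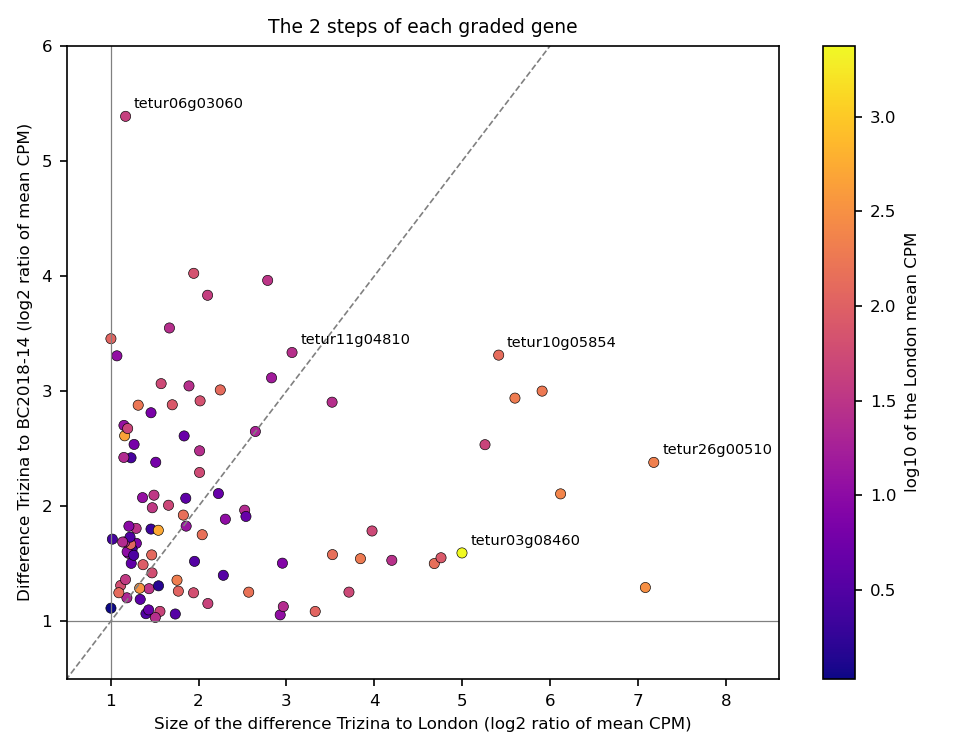
Size of the step between Trizina and London (x axis, log2 ratio of mean CPM) against the step between Trizina and BC2018-14 (y axis, log2 ratio of mean CPM) for the 98 graded genes, coloured by London mean, with solid lines at the minimum of 1 and a dashed line where the steps are equal. The extremes are a log2 ratio of -7.18 for Trizina over London in tetur26g00510 and of 5.39 for Trizina over BC2018-14 in tetur06g03060.

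The gene tetur10g05854 had the largest smaller step, being strongly graded on both sides. It had 3.15, 4.65, 2.81 and 2.12 CPM in the Trizina libraries, 131, 165 and 109.8 CPM in London, and 0.230, 0.603, 0.113 and 0.335 CPM in BC2018-14. Trizina was 42.6-fold below London and 9.93-fold above BC2018-14, and BC2018-14 was 423-fold below London. Next in this rank was tetur11g04810, with 4.42, 2.81, 3.14 and 2.53 CPM in Trizina, 30.7, 15.3 and 34.9 CPM in London, and 0.0767, 0.8291, 0 and 0.372 CPM in BC2018-14. Library c of BC2018-14 had 0 reads of it, which allows up to 3 reads or 0.113 CPM. Its steps were close to even, with log2 ratios of -3.06 for Trizina over London and 3.34 for Trizina over BC2018-14.

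The highest London mean CPM, which is not divided by gene length, belonged to tetur03g08460. It had 51.7, 77.4, 75.3 and 94.7 CPM in Trizina, 3222, 2335 and 1599.9 CPM in London, and 38.4, 32.7, 14.5 and 13.4 CPM in BC2018-14. Its grading was lopsided, with Trizina 31.9-fold below London and 3.02-fold above BC2018-14. The next highest London mean was that of tetur32g00780, with 191, 148, 148 and 236 CPM in Trizina, 729.6, 445 and 404 CPM in London, and 49.8, 66.0, 43.6 and 49.2 CPM in BC2018-14. This gene was well expressed in every library, and its log2 ratios were -1.54 for Trizina over London and 1.79 for Trizina over BC2018-14.

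The largest step to London and the largest step from BC2018-14 were in different genes. The largest step to London was in tetur26g00510, which had 1.104, 1.53, 1.53 and 1.93 CPM in Trizina, 343, 210.2 and 108 CPM in London, and 0.0767, 0.565, 0.527 and 0 CPM in BC2018-14. Trizina was 145-fold below London and 5.21-fold above BC2018-14. Library e of BC2018-14 had 0 reads of it, which allows up to 3 reads or 0.112 CPM. The gene was low in both Trizina and BC2018-14 and above 100 CPM in each London library. The largest step from BC2018-14 was in tetur06g03060, with 17.1, 18.9, 17.4 and 20.6 CPM in Trizina, 45.1, 39.9 and 39.97 CPM in London, and 0.422, 0.415, 0.377 and 0.559 CPM in BC2018-14. Here Trizina was 2.25-fold below London and 41.8-fold above BC2018-14, and the libraries of each strain lay close together.

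The most even steps among genes with a London mean of at least 10 CPM were those of tetur12g02260 and tetur09g05190. The first, tetur12g02260, had 5.10, 1.595, 2.52 and 3.36 CPM in Trizina, 13.9, 33.6 and 11.6 CPM in London, and 0.537, 0.754, 0.603 and 0.112 CPM in BC2018-14. Its log2 ratios were -2.65 for Trizina over London and 2.65 for Trizina over BC2018-14. The gene tetur09g05190 had 7.63, 9.99, 10.96 and 8.32 CPM in Trizina, 19.8, 21.95 and 21.2 CPM in London, and 4.14, 4.03, 3.503 and 4.32 CPM in BC2018-14. Its steps were small but its strains were well apart beside the spread of their libraries.

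The spread within strains also varied between the graded genes. It was smallest in tetur26g02450, with 10.7, 10.9, 10.48 and 11.9 CPM in Trizina, 22.6, 24.8 and 25.0 CPM in London, and 2.95, 3.35, 3.202 and 4.10 CPM in BC2018-14. It was largest in tetur19g03300, with 13.2, 7.70, 8.25 and 13.3 CPM in Trizina, 29.97, 25.6 and 15.2 CPM in London, and 2.84, 3.99, 0.904 and 0.186 CPM in BC2018-14. Within BC2018-14 alone the lowest library of this gene, library e, stood far below the highest, library b.

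Some genes entered the set narrowly. The smallest London to Trizina ratio inside the limit of 2 was 2.01, in tetur03g09490, and the nearest gene outside it was tetur02g11170 at 1.95. The smallest Trizina to BC2018-14 ratio inside was 2.05, in tetur09g05180, and the nearest outside was tetur01g00870 at 1.99. At the floor of 0.2 CPM, tetur05g00080 lay inside with a BC2018-14 mean of 0.207 CPM and tetur07g91835 outside with 0.199 CPM. Between the lowest London and the highest Trizina library the narrowest ratio inside was 1.03, in tetur03g09490, and the nearest outside was 0.984, in tetur22g00310. Between the lowest Trizina and the highest BC2018-14 library these ratios were 1.01 in tetur15g02450 and 0.941 in tetur19g01420. The floor alone kept out 80 genes, of which 42 had reads in BC2018-14 and 38 had 0 there. The 2 ratios alone kept out 40 and 33, and the 2 conditions on overlap alone 7 and 13.

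The graded genes were counted among the calls of a fit across all tested genes, where a call needed an adjusted p below 0.05 and a log2 fold change of at least 1 in size by edgeR's quasi-likelihood test. The comparisons of Trizina share its libraries, and all were used to choose the genes, so nothing is read from these counts. Trizina was called lower than London in 95 of the 98, beside 9.96% of all tested genes. The gene tetur19g03300, with the largest spread, was not called, at a fitted log2 fold change of -1.33. Nor were tetur03g10143 and tetur22g02971, at -1.29 and -1.27. Trizina was called higher than BC2018-14 in 93, beside 9.91%, and BC2018-14 lower than London in 98, beside 14%. Not called between Trizina and BC2018-14 were tetur03g10143, tetur08g00010, tetur13g01210, tetur22g02971 and tetur29g01670, at fitted log2 fold changes of 1.16 to 1.59. In the authors' deposited table of Trizina and London, 74 graded genes were listed, all lower in Trizina, beside 5.95% of tested genes listed as lower there. Their log2 fold changes in that authors' deposited table ran from -7.26 to -1.51. In the authors' deposited table of Trizina and BC2018-14, 61 were listed, all higher in Trizina, from 1.503 to 5.46, beside 4.6% of tested genes. The authors' deposited tables listed 43 graded genes in both, 31 in the London table only, 18 in the BC2018-14 table only and 6 in neither. Over all genes, 374 were listed in both, and in 73 of them Trizina was lower than London and higher than BC2018-14. The rule asked for both differences, so nothing is read from the 43. No gene in the authors' deposited tables had a log2 fold change smaller in size than 1.501.

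London library 5, which did not enter the choice of the genes, could be read for the 74 graded genes of the authors' deposited table of Trizina and London. That table was made with library 5, so its list is not independent of it. Its counts were scaled by the median over 988 listed genes outside the graded set. On that scale library 5 lay above the highest Trizina library in 74 of the 74 genes, and it also did so in 791 of 791 other genes listed as lower in Trizina. It fell within the range of London libraries 2 to 4 in 51 of the 74 genes (68.9%), above it in 20 and below it in 3. The other listed genes lay within that range in 66.4% of cases. The median log2 ratio of library 5 to the mean of London 2 to 4 was 0.03 in both lists. For the other listed genes a value near 0 follows largely from the scaling, which drew on listed genes outside the graded set.

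**Figure D3:**
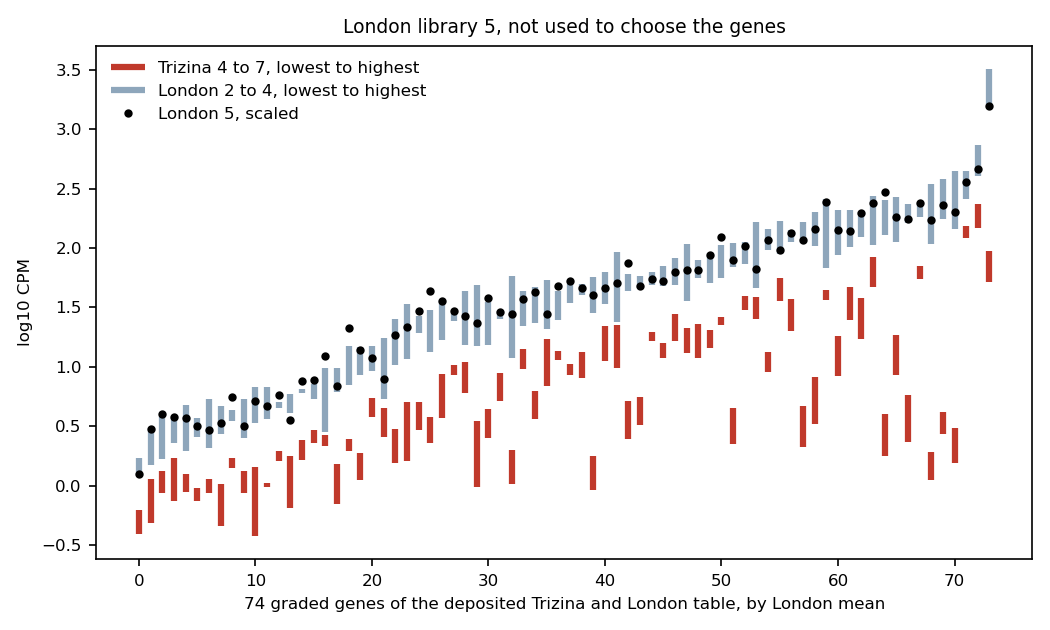
Range over Trizina libraries 4 to 7 (red bars), range over London libraries 2 to 4 (blue bars) and scaled London library 5 (black points) for each of the 74 listed graded genes, ordered by London mean on the x axis, with log10 CPM on the y axis. All 74 black points lie above the red bars, and 51 lie within the blue bars.

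The spread between libraries of a strain was larger over the graded genes than over all tested genes, as it also was over the 34 genes of the reverse order. The median SD of log2(CPM + 0.1) in Trizina was 0.318 over the graded genes and 0.150 over all tested genes. In London it was 0.422 over the graded and 0.248 over the tested genes, and in BC2018-14 it was 0.582 and 0.142. Over the 34 genes of the reverse order it was 0.202 in Trizina, 0.355 in London and 0.222 in BC2018-14. The spread was also taken over genes with at least 5 CPM in BC2018-14, which were 21 graded and 9612 tested genes. The medians over those graded and tested genes were 0.323 and 0.110 in Trizina, 0.428 and 0.207 in London, and 0.780 and 0.105 in BC2018-14. These and the next patterns were picked after the values were seen.

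Libraries e and b of BC2018-14 deviated in opposite directions. The median deviation of library e from the strain mean was -0.36 on the log2 scale over the graded genes and 0.02 over all tested genes, and that of library b was 0.36 over the graded and -0.01 over the tested genes. At 5 CPM or more library e was at -0.76 and library b at 0.58 over 21 graded genes. Library e was the lowest BC2018-14 library in 52 of the 98 genes (53.1%), against 23.7% of tested genes. It lay below 50% of each other BC2018-14 library in 22 graded genes (22.4%), against 2.78% of tested genes. The rule used library e, and a low BC2018-14 library helps a gene meet the ratio. These shares are therefore not independent of the choice of the genes. The gene tetur22g02971, chosen after its values were seen, had 73.9, 42.7, 49.2 and 82.1 CPM in Trizina, 124, 175 and 97.2 CPM in London, and 42.2, 26.3, 30.7 and 4.92 CPM in BC2018-14 libraries a, b, c and e. Its Trizina library 5 was only just above BC2018-14 library a. Without library e the rule would hold 90 genes, of which 88 are among the 98. Over the 98 genes the share of counts in BC2018-14 was then 0.0533%, and the median log2 ratio of Trizina over BC2018-14 was 1.68, against 0.0467% and 1.79 with it. Without library b the rule would hold 110 genes, of which 89 are among the 98. The share of counts in BC2018-14 was then 0.0421% and the median log2 ratio of Trizina over BC2018-14 was 1.98, against 0.0467% and 1.79 with it.

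Libraries of the other strains also moved together over these genes. Trizina 4 and 7 both lay above Trizina 5 and 6 in 45 of the 98 genes (45.9%), against 32.8% of tested genes. London 2 was the highest London library in 60 genes (61.2%), against 40.1% of tested genes. Its median deviation was 0.30 on the log2 scale, against 0.0033 over tested genes. The rule used London 2 as well, and a high London library helps a gene meet the ratio. Without London 2 the rule would hold 91 genes, of which 85 are among the 98. In a fit without it, 79 of the 98 were called lower in Trizina than in London, beside 95 with it. That fit had fewer London libraries, and the share of all tested genes called in it was not taken. Nothing is therefore read from the 79. Without London 2 the share of counts in London was 0.771%, against 0.899% with it. The median log2 ratio of Trizina over London was then -1.51, against -1.69. Differences between libraries in batch, age or sex, which the labels do not give, were not tested.

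**Figure D4:**
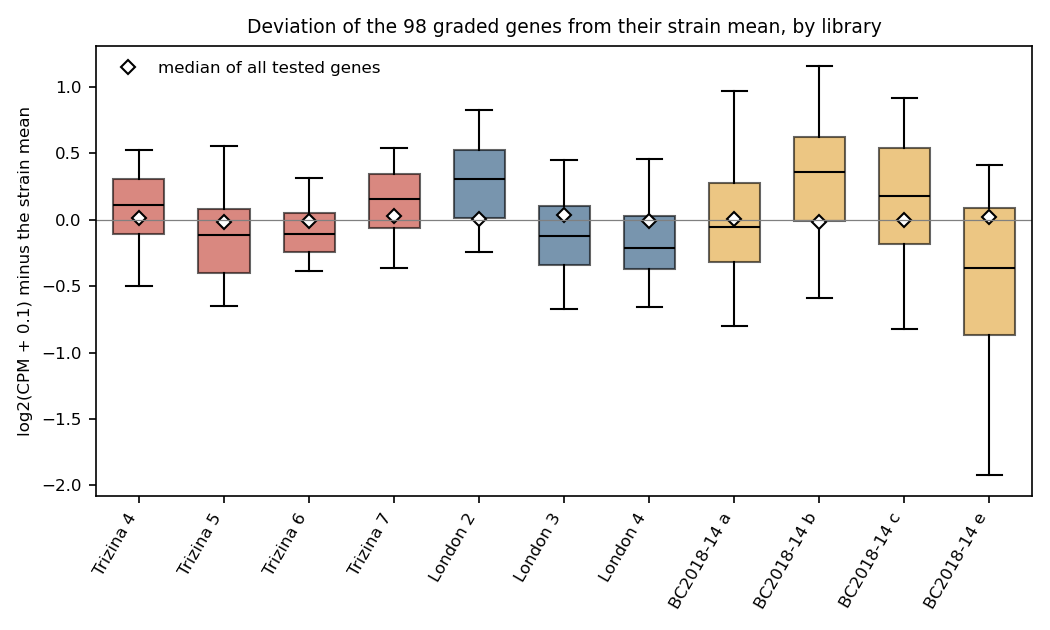
Deviation of the 98 graded genes from their strain mean of log2(CPM + 0.1) (y axis) in each of the 11 libraries (x axis). Boxes span the quartiles with the median as a line, whiskers reach the 5th and 95th percentiles, and diamonds are medians of all tested genes; the box of BC2018-14 library e has a median of -0.36 and that of library b 0.36.

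Some graded genes stood close to each other in the order of IDs, which is described here without a test. Of the 98, 21 (21.4%) had another graded gene within 5 rows on the same scaffold, in 10 runs. Of all pairs of graded genes 0.252% were this close, against 0.0557% of all pairs of tested genes. The genes lay on 37 scaffolds, with 9 on scaffold 2, 8 on scaffold 3 and 7 each on scaffolds 13 and 26. Scaffold 26 had 7 of 246 tested genes (2.85%), against 98 of 14394 (0.681%) over the table. Neighbouring IDs can be copies of one gene that share reads, which the files used here cannot tell. The genes compared next were named after their values were seen. The adjacent tetur08g00720 and tetur08g00730 had CPM ratios between 1.00 and 1.33 over the libraries. The adjacent tetur09g05180 and tetur09g05190 had ratios over a wider range, between 0.777 and 1.36. Whether the genes of either pair share reads was not tested, so their counts are uncertain as separate values. In the adjacent pair tetur03g08450 and tetur03g08460 the ratio varied from 0.186 to 3.85. The gene tetur03g08450 had 199, 198, 188 and 229.6 CPM in Trizina, 598, 456 and 311 CPM in London, and 51.1, 44.02, 20.5 and 17.7 CPM in BC2018-14. Its log2 ratios were -1.16 for Trizina over London and 2.61 for Trizina over BC2018-14, whereas those of its neighbour tetur03g08460 were -5.00 and 1.595.

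The genes next to graded ones that were not graded themselves numbered 133 among those tested. Their median log2 ratio was 0.04 for Trizina over London and 0.20 for Trizina over BC2018-14, beside all-gene medians of 0.17 and -0.07. Their strain means were in the graded order in 38 (28.6%), against 13.03% of tested genes. Of these neighbours 34 (25.6%) were called lower in Trizina than in London, beside 9.96% of tested genes.

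The longest run held 3 genes and lay on scaffold 26. A further run of 2 followed it, so that 5 graded genes stood among 14 rows. At the start of the longest run, tetur26g00470 had 3.34, 3.95, 2.70 and 4.16 CPM in Trizina, 377, 183 and 177 CPM in London, and 0.805, 1.21, 0.678 and 0.596 CPM in BC2018-14. Next to it, tetur26g00480 had 6.75, 3.33, 4.24 and 8.13 CPM in Trizina, 199.99, 128 and 104 CPM in London, and 1.34, 3.09, 2.22 and 1.27 CPM in BC2018-14. Trizina was 69.4-fold below London in the first and 25.7-fold below in the second, and the run also held tetur26g00510, described above with the largest step to London.

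The genes of the second run, named after their values were seen, had smaller steps to London. The gene tetur26g00570 had 38.3, 25.0, 25.9 and 36.6 CPM in Trizina, 165, 111 and 46.1 CPM in London, and 6.36, 20.3, 18.9 and 6.74 CPM in BC2018-14. The gene tetur26g00610 had 46.6, 24.8, 27.3 and 45.2 CPM in Trizina, 210.0, 133 and 102 CPM in London, and 9.31, 15.3, 11.6 and 6.52 CPM in BC2018-14. Among the 14 rows 7 tested genes were not graded, 5 of them with means in the graded order. One of these, tetur26g00490, was also named after its values were seen. It had 0.162, 0.277, 0.146 and 0.189 CPM in Trizina, against 81.3, 49.96 and 40.9 CPM in London. In BC2018-14 it had 0, 0.0377, 0.565 and 0.0372 CPM, so Trizina and BC2018-14 were both near 0 and overlapped. The means of tetur26g00540 were 9.84 CPM in London, 2.59 in Trizina and 1.25 in BC2018-14. Its Trizina and BC2018-14 libraries overlapped, with 1.49 CPM in Trizina 5 and 2.15 CPM in BC2018-14 b. In tetur26g00530, tetur26g00550 and tetur26g00590 the London and Trizina libraries overlapped. Their means were 0.360, 73.6 and 2.52 CPM in London, 0.342, 69.2 and 1.42 in Trizina, and 0.255, 39.2 and 1.29 in BC2018-14. In tetur26g00560 and tetur26g00580 the London mean was below that of Trizina. Their means were 39.7 and 0 CPM in London, 42.0 and 0.771 in Trizina, and 32.1 and 0.132 in BC2018-14.

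**Figure D5:**
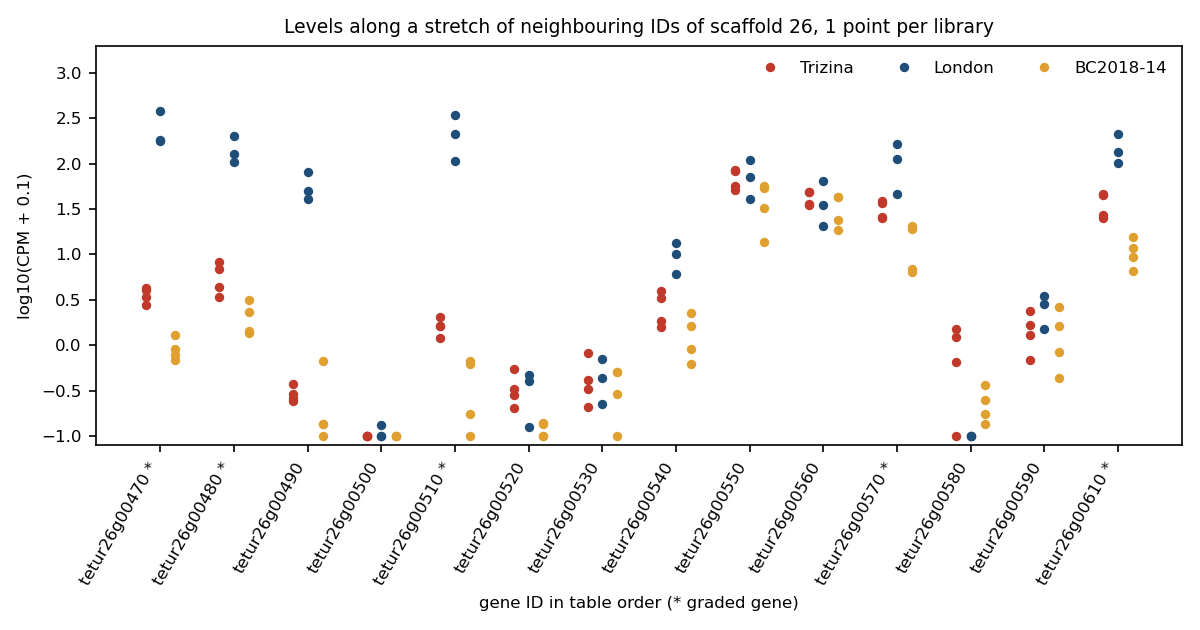
Level of each gene in consecutive table rows on scaffold 26 (x axis, gene IDs, with a star for graded genes; y axis, log10(CPM + 0.1)), with 1 point per library coloured by strain. London lies highest in all 5 graded genes, with Trizina 145-fold below it in tetur26g00510 and 3.41-fold below it in tetur26g00570.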

How the data were processed

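The authors deposited raw read counts per gene and 2 comparison tables whose columns, per the file headers, hold a log2 fold change, a p-value or a false discovery rate. HISAT2 2.1.0, SAMtools 1.10, featureCounts 1.6.0 and edgeR were used, per the submitters' processing notes. The library kit kept the strand, per the labels' protocols. Build, annotation and strand setting are not given in the sources used here, so overlapping genes and near-identical copies are uncertain.

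The header of the raw table named 12 libraries and its lines held 11 values. Columns were assigned because they equalled the named columns of the comparison tables at 1458 of 1458 and 967 of 967 genes. The planned lists of gene classes could not be applied, since 0 IDs matched the RefSeq table of assembly NJAU_TeUrti_SD_1.0. Totals were 26454588 to 30799433 counts in Trizina, 29262202 to 39875401 in London and 26090006 to 26851943 in BC2018-14.

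CPM used library totals, and log2 values a pseudocount of 0.1 CPM. Limits for a count of 0 cover counting error only. The fit was edgeR 4.0.16 in R 4.3.3 (filterByExpr, TMM, robust quasi-likelihood, strain as the only term, Benjamini-Hochberg over 14394 genes), tested on simulated data. DESeq2 1.42.0 and other settings were alternatives. The genes and lists were chosen with earlier results of these data known. Genes named were those with extreme, most even or most and least variable steps or levels, the nearest to each limit, and the longest run of IDs.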

Additional observations from a re-analysis of the deposited data

Results flagged for a closer look

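In the gene tetur15g02450 a Trizina library stood apart from the others: the levels were 0.455, 0.485, 0.694 and 0.491 CPM in Trizina libraries 4 to 7. The gap of library 6 to its nearest neighbour was 0.846 of the whole range, above Dixon's 95% critical value for 4 samples. These levels were all under 1 CPM, and the check takes no account of counting error. This was 1 of 36 groups checked, and chance gives about 1 in 20. The gene is also the one whose Trizina and BC2018-14 libraries came closest to overlapping.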

How the results depend on the processing

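The number of graded genes depended on the limits of the rule. It was 98 at a ratio of 2, 157 at 1.5 times, 32 at 3 times and 51 with a floor of 1 CPM in BC2018-14. With no floor but a BC2018-14 mean above 0 it was 140. With CPM on TMM-scaled library sizes it was 114, of which 95 were among the 98, and with strain medians 87, of which 84 were. Leaving out each library in turn gave 90 to 110 genes, with 85 to 97 of the 98 among them, and the fewest shared were without London 2. Graded genes with another in the next row only numbered 12, against 21 within 5 rows. Under other settings, including DESeq2, 79 to 98 of the 98 were called between Trizina and London and 83 to 97 between Trizina and BC2018-14. Between BC2018-14 and London all 98 were called. The exception was a filter of 5 CPM in 3 libraries, which takes low genes out before the test and gave 75, 74 and 78. Shares of all tested genes called were taken in the main fit only, at 9.96%, 9.91% and 14% for these comparisons. The rule also used these comparisons, so nothing is read from the counts under other settings. The median ratios stayed within 1 SD between libraries with TMM scaling, strain medians, edgeR fold changes and single libraries left out. That SD came from medians taken with 1 library of a strain at a time. For single libraries left out the outcome was thus largely fixed, and nothing is read from it. The share of counts was recomputed only with single libraries left out. Such a shift cannot exceed 1 SD of the same libraries, so nothing is read from it. The 35 genes with a BC2018-14 library under 10 reads are those where depth limits the lowest level most. No paired analysis was possible because the Trizina and London libraries of the raw table share only replicate number 4 and the BC2018-14 libraries carry letters.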

Other observations

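The same rule with the strains reversed, BC2018-14 highest and London lowest, held 34 genes. Both sets were chosen by values of these libraries, so the counts below describe them only. Library e was the lowest BC2018-14 library in 52 of the 98 genes graded towards London (53.1%), against 3 of the 34 reversed genes (8.82%). It lay below 50% of each other BC2018-14 library in 22 and in 0 genes. Trizina 4 and 7 both lay above Trizina 5 and 6 in 45 (45.9%), against 7 of the reversed genes (20.6%). London 2 was the highest London library in 60 (61.2%), against 19 of the reversed genes (55.9%). In the reversed set BC2018-14 is the highest strain, with a median mean of 11.8 CPM there, so low counts weigh differently in the 2 sets. The median SD of log2(CPM + 0.1) over the reversed genes was 0.202 in Trizina, 0.355 in London and 0.222 in BC2018-14, above that of all tested genes in each strain, as in the set graded towards London. No test of these differences was made.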
